A study of Mus musculus with 4 samples.

Results

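The genes described here encode the nuclear subunits of the oxidative phosphorylation complexes of mitochondria. They were chosen by symbol: names starting with Ndufa, Ndufb, Ndufc, Ndufs or Ndufv, Sdha to Sdhd, names starting with Uqcr or Atp5, those from Cox4 to Cox8, and Cyc1 and Cycs, with assembly factors left out. The array carried 85 such genes among 17016 named genes. In all, 19338 genes were tested, of which 12815 had a symbol and the rest were known by accession alone. Of the 85, 83 passed the filter on dim probes and were tested. By complex these were 36 genes of complex I, 4 of complex II, 9 of complex III, 16 of 18 of complex IV, 17 of complex V and cytochrome c itself. The same rule found 24 further symbols in the RefSeq gene table that no array probe was matched to, 19 of them pseudogenes. The other 5 were Ndufa11, Ndufa4l2, Ndufb1, Ndufb4b and Ndufb4c, which were not analysed here.

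Total RNA from 4 samples of mouse embryonic stem (ES) cells was labelled with Cy3 and hybridised to 1-colour Agilent arrays, 1 array per sample. All samples came from a tetracycline (Tc)-inducible line for knock-down of FBL (fibrillarin, the nucleolar enzyme that methylates ribosomal RNA), kept on gelatin with leukaemia inhibitory factor (LIF). The 2 controls had Tc at 1000 ng/mL and expressed FBL; the 2 knock-down samples were grown without Tc for 2 days. The groups therefore also differ in the presence of the drug itself, and the labels name neither a strain nor a clone. Nothing in the labels tells if samples within a group were separate cultures, so the p-values here measure the spread among these 4 samples alone, and that spread may be technical. The comparison addresses which transcripts differ after loss of FBL while the cells stay in LIF, and here it is read for the respiratory chain.

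Oxidative phosphorylation makes most of the ATP of respiring cells. Complex I (NADH dehydrogenase) and complex II (succinate dehydrogenase) pass electrons to ubiquinone, complex III passes them to cytochrome c, and complex IV (cytochrome c oxidase) passes them to oxygen, while complexes I, III and IV pump protons that drive ATP synthase, complex V. Most subunits are encoded in the nucleus and imported, and a few core subunits of every complex but complex II are encoded by mitochondrial DNA. Pluripotent cells rely heavily on glycolysis but have active mitochondria, and several complex IV subunits exist as a widely expressed form and a form restricted to heart and muscle, lung or testis.

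Many nuclear genes of the chain are known targets of the transcription factors NRF1, GABP (an ETS factor) and YY1, so the promoters of the members were read from the RefSeq table of assembly GRCm38.p6, in windows of 300 bases (250 before and 50 after the gene start), for 69 of the 85 members. Each core was searched on both strands. The NRF1 core CGCATGCG, which reads the same on both strands, was in a window of 9 of the 69 (13.0%), against 3.92% of 10273 tested genes with a promoter and 2.07% of all 27025 genes of the table. The ETS core CCGGAAG was in 17 (24.6%, against 18.4% and 9.93%), and the YY1 core AAGATGG in 11 (15.9%, against 8.19% and 7.28%). A match describes letters and is no measured binding. The members with the NRF1 core were Ndufa8, Uqcr11, Uqcrc1, Cox6a1, Atp5g2, Atp5j, Atp5k, Atp5l and Cycs. The following 4 stretches show that core in capitals within 40 bases of promoter, on the minus strand in each case, at chr6:50566607-50566646 (Cycs), chr15:102671065-102671104 (Atp5g2), chr5:108434425-108434464 (Atp5k) and chr5:115349096-115349135 (Cox6a1).
Cycs: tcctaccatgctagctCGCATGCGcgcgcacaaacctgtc
Atp5g2: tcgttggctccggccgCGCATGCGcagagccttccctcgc
Atp5k: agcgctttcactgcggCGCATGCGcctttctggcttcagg
Cox6a1: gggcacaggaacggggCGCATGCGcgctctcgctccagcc

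Cox6b2, the single subunit gene past the threshold, and its widely expressed partner Cox6b1 both lie on chromosome 7, and the 250 bases before each start are shown to set the promoters of this isoform pair beside each other. They cover chr7:4753095-4753344 for Cox6b2 and chr7:30626115-30626364 for Cox6b1, both on the minus strand of GRCm38.p6 and written 5′ to 3′. Capitals in Cox6b1 mark the ETS core on the opposite strand, 28 to 22 bases before the start. None of the 3 cores was found in the window of Cox6b2.
Cox6b2: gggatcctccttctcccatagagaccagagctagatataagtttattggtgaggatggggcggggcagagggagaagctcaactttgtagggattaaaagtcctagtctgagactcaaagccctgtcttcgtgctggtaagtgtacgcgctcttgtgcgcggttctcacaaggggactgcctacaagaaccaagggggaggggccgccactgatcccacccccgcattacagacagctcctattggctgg
Cox6b1: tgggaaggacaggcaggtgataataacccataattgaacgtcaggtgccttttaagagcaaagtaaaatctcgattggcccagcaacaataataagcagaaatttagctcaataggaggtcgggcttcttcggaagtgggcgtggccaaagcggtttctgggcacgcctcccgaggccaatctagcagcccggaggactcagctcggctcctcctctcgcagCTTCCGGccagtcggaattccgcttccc

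The array checks were as follows. Between 59.9% and 64.5% of probes were well above background per array, no spot was saturated, and the 4 arrays lay on 2 slides, with knock-down 2 alone on slide 2, so a fit within slide 1 equals leaving that sample out. Fbl, the targeted gene, read 8.63 in control 1, 8.12 in control 2, 5.98 in knock-down 1 and 5.94 in knock-down 2, on a log2 scale relative to the 75th percentile of each array, and fell by 2.41 on the log2 scale (± 0.25 SE, 5.32-fold lower, n = 2 per group, limma adjusted p = 3.22e-04). Over all genes tested, 4.05% rose, 2.74% fell and 30.3% had both knock-down values below both controls. Of 11 tested ES cell markers 0 rose and 1 fell (Tbx3, log2 change −0.89, adjusted p = 0.0427), with a median of −0.32 and 6 below both controls. Nanog differed by −0.82 (adjusted p = 0.0586, past the threshold in 6 of 15 alternative settings), while Pou5f1, which encodes OCT4, differed by −0.06 (adjusted p = 0.932). The summed linear level of the ES list, relative to the 75th percentile, was 1090 and 900.0 in the controls against 903 and 1175 after knock-down, of which Dppa5a alone made 57.7% to 72.9%; without it the sums were 393 and 380.4 against 316 and 319. Of 10 fibroblast markers, 5 were not well above background on any array, and the list summed to 6.82 and 4.32 in the controls against 3.23 and 3.58 after knock-down. Trophectoderm markers summed to 14.2 and 12.0 against 24.9 and 21.2, with 1 of 7 tested rising (Krt7) and 1 falling (Elf5). Their median change was 0.77, with 5 of the 7 above both controls, against 20.9% of all genes, and 2 below both, against 30.3%. Primitive endoderm markers summed to 2.91 and 2.47 against 1.42 and 1.40, with 0 of 7 rising and 2 falling (Sox7 and Lama1). Neural markers summed to 11.5 and 7.09 against 7.37 and 8.63, with 1 of 6 rising (Neurod1) and 0 falling. Streak and mesoderm markers summed to 0.43 and 0.36 against 0.50 and 0.48, with 1 of 6 rising (Kdr) and 0 falling. Over 15 alternative settings Krt7 and Neurod1 passed in 14, Sox7 in 13, Lama1 and Kdr in 11 and Tbx3 in 9, and Elf5 in 7 of 14. Normexp background correction moved Elf5 to 0.12 and Sox7 from −2.15 to −0.21 (adjusted p = 0.890 and 0.758). Besides the ES list, a single gene made most of the sum on every array in 4 of these lists. These genes were Thy1 (fibroblast, 88.8% to 94.9%) and Tfap2c (trophectoderm, 97.4% to 97.9%). The others were Lama1 (primitive endoderm, 77.0% to 84.2%) and Tubb3 (neural, 91.6% to 96.4%). Without that gene, the fibroblast sums were 0.41 and 0.22 in the controls against 0.31 and 0.40 after knock-down. The trophectoderm sums were then 0.33 and 0.29 against 0.53 and 0.55, and the primitive endoderm sums 0.61 and 0.39 against 0.33 and 0.32. Neural sums became 0.41 and 0.42 against 0.62 and 0.65. The part of these markers in the results for the subunits was not tested.

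Of the 83 tested subunit genes, 1 rose after FBL knock-down, Cox6b2 of complex IV, and 0 fell (limma with Benjamini-Hochberg adjustment over all genes, threshold 0.05). That is 1.20% and 0% of the members, where 4.05% of all genes rose and 2.74% fell. At an unadjusted p under 0.05, 4 members stood apart (4.82%), Cox6b2 higher and Cox7a2l, Cox8c and Atp5pb lower, against 20.1% of all genes. All 83 were well above background on all 4 arrays, so none entered through its level in a single group. Their log2 changes (knock-down minus control) ran from −0.62 to 0.92 with a median of −0.10, and 77 were smaller than 0.5 in size. Over all genes tested the median change was −0.06 and the median size of a change was 0.26, against 0.16 among the members. The standard error of a member was 0.23 to 0.29, and the 95% interval of the fit stayed within 1 log2 unit of 0 for 77 members and reached past it for 6. In this fit the smallest change called among all genes was 0.855, so smaller shifts were not detectable in it. In RNA from whole cultures, fewer cells of a type and less RNA per cell cannot be told apart.

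**Figure D1:**
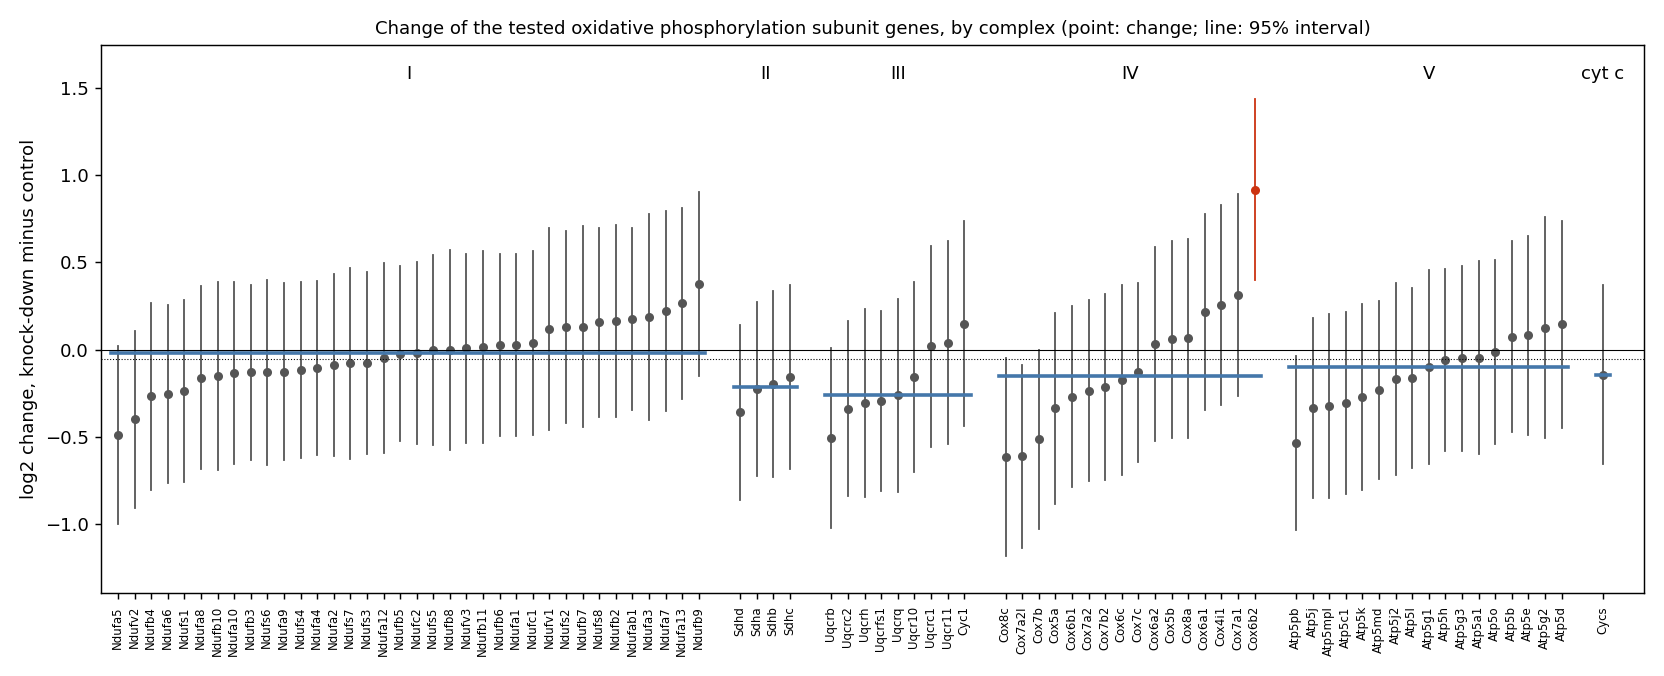
Log2 change (knock-down minus control, vertical axis) of each of the 83 tested subunit genes, ordered by change within complexes I to V and cytochrome c (cyt c), with the 95% interval of the limma fit as a line, the median of each complex as a blue bar and the median of all genes as a dotted line. Cox6b2, in red, is the gene past the threshold, and the intervals of most other members span 0.

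The direction of the small changes depended on the control used. Of the 83 members 54 were lower and 29 higher (65.1% lower, against 55.8% of all genes), and both knock-down values lay below both controls for 27 (32.5%, against 30.3% of all genes) and above both for 4 (4.82%, against 20.9%). The 4 were Cox6b2, Ndufb9, Ndufa13 and Ndufab1, and the other 52 overlapped. Control 2 was below control 1 for 75 members (90.4%, against 62.1% of all genes), with a median gap of −0.37 between these controls, against −0.18 over all genes. Knock-down 2 minus knock-down 1 had a median of 0.05. Relative to each gene's mean over the 4 arrays, the median member stood at 0.23 in control 1, −0.13 in control 2, −0.05 in knock-down 1 and −0.02 in knock-down 2, so both knock-down samples lay between the controls. For 35 of the 83 members each knock-down value lay between the control values, as against 26.7% of all genes. Without control 1 the median change was 0.06 with 33 members lower, and without control 2 it was −0.25 with 77 lower. For 21 members (25.3%) the change was larger than the gap between the controls, as it was for 42.0% of all genes. Under quantile normalization the split was 43 lower and 40 higher.

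**Figure D2:**
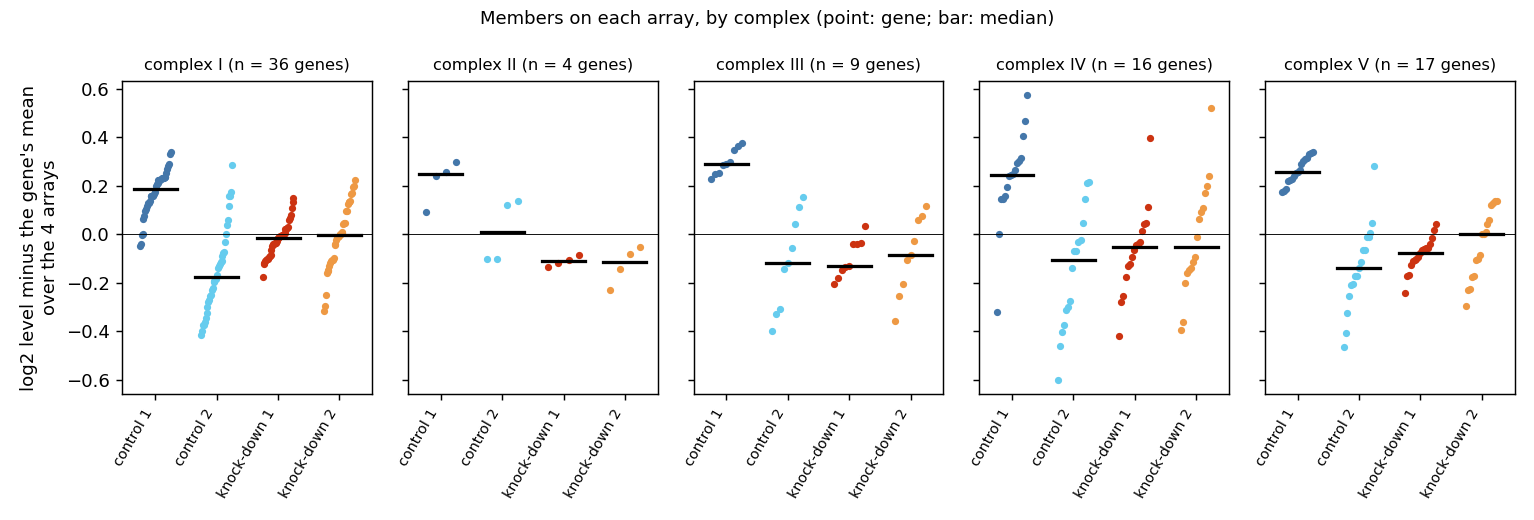
Log2 level of each tested member on each array minus the gene's own mean over the 4 arrays (vertical axis), 1 panel per complex, with points for genes and a black bar for the median. In each complex the median is highest in control 1, between 0.19 and 0.29, and in complexes I, IV and V it is lowest in control 2.

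Complex I had 0 of 36 members past the threshold, with 15 higher and 21 lower and a median change of −0.02. Both knock-down values were below both controls for 8 of the 36 members, against 30.3% of all genes, and above both for 3, against 20.9%. Ndufb9, an accessory subunit of the membrane arm, had the highest change: it read 7.16 and 6.79 in the controls against 7.32 and 7.39 after knock-down, a change of 0.38 ± 0.24 SE (adjusted p = 0.434). Both knock-down arrays were above both controls, and control 2 was the lowest array. Ndufa5, an accessory subunit of the arm that reaches into the matrix, had the lowest: 6.15 and 5.98 in the controls against 5.65 and 5.51, a change of −0.49 ± 0.23 SE (adjusted p = 0.268). Here the groups did not overlap, and the change exceeded the gap of either pair. The median of complex I was 0.16 without control 1 and −0.18 without control 2.

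The complex I members with the highest mean signal were Ndufa13 and Ndufb8. Ndufa13, also known as GRIM-19, read 7.71 and 7.23 in the controls and 7.74 on both arrays after knock-down, so control 2 alone stood low. Ndufb8 read 7.46 and 6.89 against 7.07 and 7.27, with both knock-down values inside the control range and a change of −0.00. Ndufv2, of the flavin-bearing end where NADH is oxidised, read 4.04 and 3.99 against 3.70 and 3.52, a change of −0.40 (adjusted p = 0.374) with no overlap. Grouped by textbook position, a grouping made with the values known, the NADH-oxidising module had 7 of 10 members lower (median −0.10), the quinone-binding module 3 of 5 (median −0.08) and the Ndufb and Ndufc subunits of the membrane arm 6 of 12 (median 0.01).

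Ndufab1, the mitochondrial acyl carrier protein that is also part of complex I, had the widest gap among 17 members read by more than 1 probe. Its probe of highest signal read 5.61 and 5.29 in the controls against 5.61 and 5.63, a change of 0.17, and its other probe gave 0.47. Sdha, with 2 probes, gave −0.23 and −0.51, and the 3 probes of Ndufv3 ran from −0.21 to 0.01. For 4 members the probes differed in sign, and the widest gap between probes of 1 gene was 0.30.

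Complex II, made wholly from nuclear genes, had 0 of 4 members past the threshold and all 4 lower, with a median of −0.21. Sdha, the flavoprotein that oxidises succinate, read 2.33 and 2.38 in the controls against 2.15 and 2.09 after knock-down (change −0.23 ± 0.23 SE, adjusted p = 0.652). Sdhb, the iron-sulfur subunit, read 4.89 and 4.49 against 4.47 and 4.51 (change −0.20, adjusted p = 0.724). Sdhc, a membrane anchor, read 4.17 and 3.81 against 3.81 and 3.86 (change −0.16, adjusted p = 0.784). For Sdhb and Sdhc it was control 1 that stood apart, while control 2 lay close to both knock-down arrays. Sdhd, the other membrane anchor, read 5.33 and 5.21 against 4.95 and 4.86 (change −0.36 ± 0.23 SE, adjusted p = 0.428). Sdha and Sdhd, 2 of the 4 members, had both knock-down values below both controls, against 30.3% of all genes. Leaving out control 1 moved the median of the complex to −0.12 and leaving out control 2 to −0.37.

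Complex III had the lowest median of the 5 complexes, −0.26. Complex II was lower with probes averaged, at −0.28, without control 1 and, narrowly, without knock-down 1 (−0.219 against −0.215). In complex III 0 of 9 members passed the threshold, with 6 lower and 3 higher. Uqcrb, a small subunit near the quinone site, was lowest and read 5.26 and 5.07 in the controls against 4.76 and 4.55 after knock-down. Its change was −0.51 ± 0.23 SE (adjusted p = 0.260), and the groups did not overlap. Cyc1, the haem-bearing cytochrome c1 that hands electrons to cytochrome c, was highest: 7.10 and 6.45 against 6.88 and 6.97, a change of 0.15 ± 0.27 SE (adjusted p = 0.821). Both of its knock-down values lay inside the control range. Uqcrh, the hinge protein, read 8.37 and 7.94 against 7.80 and 7.90 (change −0.31, adjusted p = 0.549), and Uqcrq, which binds near the quinone site, read 8.01 and 7.51 against 7.45 and 7.54 (change −0.26, adjusted p = 0.638).

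Among the other members of complex III, the Rieske iron-sulfur protein Uqcrfs1 differed by −0.29 and the core protein Uqcrc2 by −0.34, neither past the threshold (adjusted p = 0.553 and 0.459). The core protein Uqcrc1 differed by 0.02, Uqcr10 by −0.16 and Uqcr11 by 0.04. Without control 1 the median of complex III was −0.015, and without control 2 it was −0.40. The size of this median therefore depended on the control used. Both knock-down values were below both controls for 4 of the 9 members, against 30.3% of all genes, and above both for 0, against 20.9%. Cycs, the mobile carrier between complexes III and IV that also activates caspases when released, read 6.11 and 6.16 in the controls against 6.12 and 5.86 after knock-down. Its change was −0.14 ± 0.23 SE (adjusted p = 0.799), and knock-down 2 alone was low.

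Complex IV held the widest range, from −0.62 to 0.92, with 1 of 16 tested members rising and 0 falling. The median was −0.15, with 7 higher and 9 lower. Both knock-down values were below both controls for 6 of the 16, against 30.3% of all genes, and above both for 1, against 20.9%. Cox6b2, the isoform of subunit VIb known from testis, read 2.61 and 2.33 in the controls against 3.33 and 3.45 after knock-down. Both knock-down values lay above both controls, and the distance between groups exceeded the gap within either. The change was 0.92 ± 0.23 SE (95% interval 0.40 to 1.44, 1.89-fold higher, n = 2 per group, limma adjusted p = 0.0426). Within slide 1 the change was 0.86, with adjusted p = 0.698, and without knock-down 1 it was 0.98 with adjusted p = 0.361. In both fits a single variance was used for all genes. Over 15 alternative settings the change ran from 0.78 to 1.06 and passed the threshold in 11. Its partner Cox6b1, the widely expressed subunit VIb that links the monomers of the oxidase, read 2.77 and 2.46 against 2.35 and 2.34, a change of −0.27 ± 0.24 SE (adjusted p = 0.598). The difference between the changes of these isoforms was not tested.

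**Figure D3:**
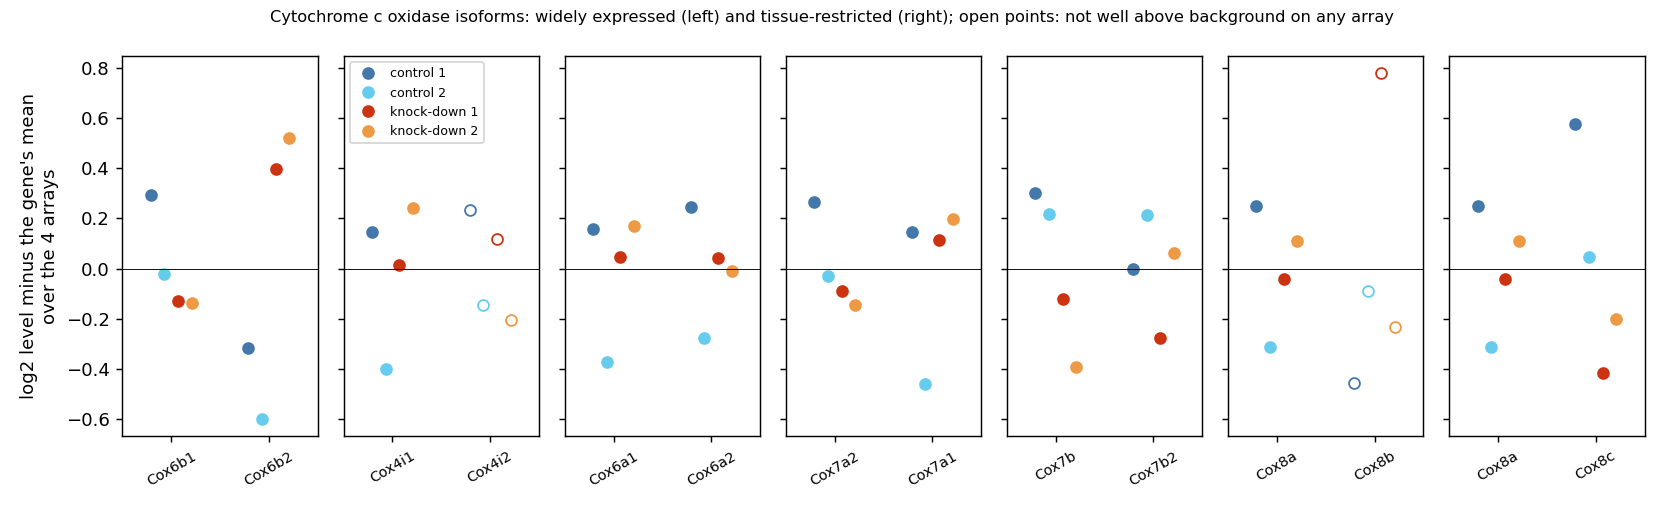
Log2 level minus the gene's own mean over the 4 arrays (vertical axis) for 7 pairs of complex IV isoforms, the widely expressed form on the left and the tissue-restricted form on the right of each panel, with 1 point per array. Filled points belong to probes well above background, open points to Cox4i2 and Cox8b, which were not well above background on any array, and Cox6b2 is the gene whose knock-down points both lie clearly above both controls.

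The other tissue-restricted forms of complex IV did not pass the threshold. Cox7a1, the form of heart and muscle, read 3.40 and 2.80 in the controls against 3.37 and 3.46 after knock-down, a change of 0.31 ± 0.26 SE (adjusted p = 0.575). Control 2 alone was low, and without control 1 the gene passed, with a change of 0.61 and adjusted p = 0.0457, while without control 2 the change was 0.012 (adjusted p = 0.955). Its widely expressed partner Cox7a2 read 6.64 and 6.35 against 6.29 and 6.23 (change −0.24, adjusted p = 0.655). Cox8c, described from testis, read −2.22 and −2.75 against −3.21 and −2.99, a change of −0.62 ± 0.26 SE (adjusted p = 0.205), with no overlap. Without control 2 it passed, at −0.88 with adjusted p = 0.0430, while it was −0.36 without control 1 (adjusted p = 0.160) and −0.20 under normexp background correction (adjusted p = 0.777). Its partner Cox8a read 7.80 and 7.24 against 7.51 and 7.66, inside the control range.

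Cox6a2, of heart and muscle, read −3.93 and −4.45 in the controls against −4.13 and −4.18 (change 0.03, adjusted p = 0.966). Its partner Cox6a1 read 8.95 and 8.42 against 8.84 and 8.96 (change 0.22, adjusted p = 0.711). In both, control 2 was the low array. Cox7b2 read −4.64 and −4.43 against −4.92 and −4.58 (change −0.21, adjusted p = 0.699), and its partner Cox7b read 5.52 and 5.43 against 5.09 and 4.82, a change of −0.52 ± 0.23 SE (adjusted p = 0.249) with no overlap. Cox4i2, the lung form of subunit IV, read −6.20 and −6.58 against −6.32 and −6.64, and Cox8b, of heart and muscle, read −7.82 and −7.45 against −6.59 and −7.60. Neither was well above background on any array, so no fold is given. Cox4i1, the widely expressed subunit IV, read 8.47 and 7.92 against 8.34 and 8.56 (change 0.26 ± 0.26 SE, adjusted p = 0.663), with control 2 again the low array.

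Without these restricted isoforms, 11 members of complex IV remained, with a median of −0.18 and 0 past the threshold. Cox7a2l, also known as a factor in the assembly of respiratory supercomplexes, read 4.76 and 4.44 in the controls against 4.04 and 3.93 after knock-down. Its groups did not overlap, and its change of −0.61 ± 0.24 SE had the smallest adjusted p after Cox6b2, 0.171. It passed in 3 of 15 alternative settings. Cox5a differed by −0.34 (adjusted p = 0.513) and its neighbour in the complex Cox5b by 0.06 (adjusted p = 0.934), while Cox6c differed by −0.18 and Cox7c by −0.13. Ndufa4, counted with complex I by its symbol but known as a subunit of complex IV, read 6.13 and 6.11 against 6.07 and 5.96 (change −0.10 ± 0.23 SE, adjusted p = 0.856). Its hypoxia-induced partner Ndufa4l2 was not analysed here. The median of complex IV was 0.027 without control 1 and −0.25 without control 2.

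Complex V, the ATP synthase, had 0 of 17 members past the threshold, with 4 higher and 13 lower and a median of −0.10. Both knock-down values were below both controls for 7 of the 17, against 30.3% of all genes, and above both for 0, against 20.9%. Atp5pb, subunit b of the peripheral stalk that holds the catalytic head against rotation, was lowest. It read 6.59 and 6.61 in the controls against 6.09 and 6.04 after knock-down, a change of −0.54 ± 0.23 SE (95% interval −1.04 to −0.04, adjusted p = 0.211). The arrays of each group lay close together and the groups did not overlap. Atp5d, the delta subunit of the central stalk, was highest and read 5.83 and 5.16 against 5.59 and 5.70, a change of 0.14 ± 0.27 SE (adjusted p = 0.831). Its knock-down values lay inside the control range. Atp5b, the catalytic beta subunit, read 8.76 and 8.33 against 8.52 and 8.72 (change 0.07, adjusted p = 0.912). Atp5g3, one of the genes for the rotating c subunit, read 8.34 and 7.95 against 8.06 and 8.13 (change −0.05, adjusted p = 0.941).

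By position in the enzyme, a grouping made with the values known, the catalytic head and central stalk (Atp5a1, Atp5b, Atp5c1, Atp5d and Atp5e) had 2 of 5 members lower and a median of 0.07. The c subunit genes Atp5g1, Atp5g2 and Atp5g3 had 2 of 3 lower and a median of −0.05. Both knock-down values were below both controls for 6 of the 9 genes of the peripheral stalk and the membrane part, against 30.3% of all genes. All 9 were lower, from −0.54 to −0.01, with a median of −0.23. Among these, Atp5j (coupling factor 6) differed by −0.34, Atp5mpl by −0.32 and Atp5k by −0.27, with adjusted p of 0.479, 0.516 and 0.603, while Atp5o, which caps the stalk, differed by −0.01. The median of complex V was 0.084 without control 1 and −0.31 without control 2, so its direction too depended on the controls.

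The changes were also read by promoter core, as a description with no test. The 9 tested members with the NRF1 core had a median change of −0.14 and the 59 without it −0.08. With the ETS core the median of 17 members was −0.08 and without it, over 51, −0.10. With the YY1 core the median of 11 was −0.13, and over the 57 without it −0.06. The factors themselves were also measured: Nrf1 differed by 0.22 (limma adjusted p = 0.674), Gabpa by −0.41 (adjusted p = 0.415) and Yy1 by 0.03 (adjusted p = 0.959). The change of Gabpa was −0.69 without control 1 and −0.14 without control 2. It passed the threshold in 1 of 15 alternative settings.

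Other genes that build, feed or regulate the chain were read from lists in the same fit. Of 41 tested assembly factors, proteins that insert cofactors and join subunits, 0 rose and 0 fell, where 4.05% and 2.74% of all genes did. The median was −0.10 with 27 lower, and 1 had an unadjusted p under 0.05, against 20.1% of all genes. Cox17, a copper chaperone of complex IV, differed by −0.06 and Ecsit, a complex I assembly factor, by 0.11. Of 13 tested genes of ubiquinone synthesis and the electron transfer flavoprotein 0 rose and 0 fell, with a median of 0.12 and 8 higher. In this list 1 had an unadjusted p under 0.05, against 20.1% of all genes. Etfb differed by 0.12 and Coq2 by 0.18. No array probe was matched to the 13 mitochondrially encoded subunits, which were not analysed here.

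Of 19 tested genes of mitochondrial transcription and its nuclear regulators, 1 fell and 0 rose, where 2.74% and 4.05% of all genes did. The median was −0.14. Both knock-down values were below both controls for 8 (30.3% over all genes) and above both for 3 (20.9% over all genes). Ppargc1b, the coactivator PGC-1 beta that raises transcription of respiratory genes, read −0.43 and −0.47 in the controls against −1.57 and −1.45 after knock-down. The groups were far apart compared with the gap within either. The gene fell by 1.06 on the log2 scale (± 0.23 SE, 2.08-fold lower, limma adjusted p = 0.0184), and over 15 alternatives the change ran from −1.20 to −0.61 and passed in 10. Normexp background correction gave the smallest size, −0.61 (adjusted p = 0.120). Within slide 1 it was −1.12 (adjusted p = 0.265). Tfam, which packages and transcribes mitochondrial DNA, differed by −0.46 (limma adjusted p = 0.309) and Esrra, a nuclear receptor of respiratory genes, by 0.49 (adjusted p = 0.333). The change of Esrra was 0.78 without control 1 and 0.19 without control 2. It passed the threshold in 1 of 15 alternative settings.

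Of 21 tested genes of pyruvate dehydrogenase and the TCA cycle, 1 fell and 0 rose, where 2.74% and 4.05% of all genes did, with 18 lower and a median of −0.32. An unadjusted p under 0.05 was found for 7 of the 21, against 20.1% of all genes. Both knock-down values were below both controls for 13 of the 21, against 30.3% of all genes. Pdha1, the catalytic alpha subunit of pyruvate dehydrogenase, which feeds the TCA cycle from glycolysis, read 4.65 and 4.57 in the controls against 3.82 and 3.65 after knock-down. It fell by 0.88 on the log2 scale (± 0.23 SE, 1.84-fold lower, limma adjusted p = 0.0465), and its groups did not overlap. The call passed in 9 of 15 alternatives and was lost within slide 1 (−0.79, adjusted p = 0.824) and under quantile normalization (−0.80, adjusted p = 0.068). Pdk4, a kinase that inactivates this enzyme, differed by 0.66 (limma adjusted p = 0.130). Over 15 alternatives its change ran from 0.48 to 0.76 and passed in 1.

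**Figure D4:**
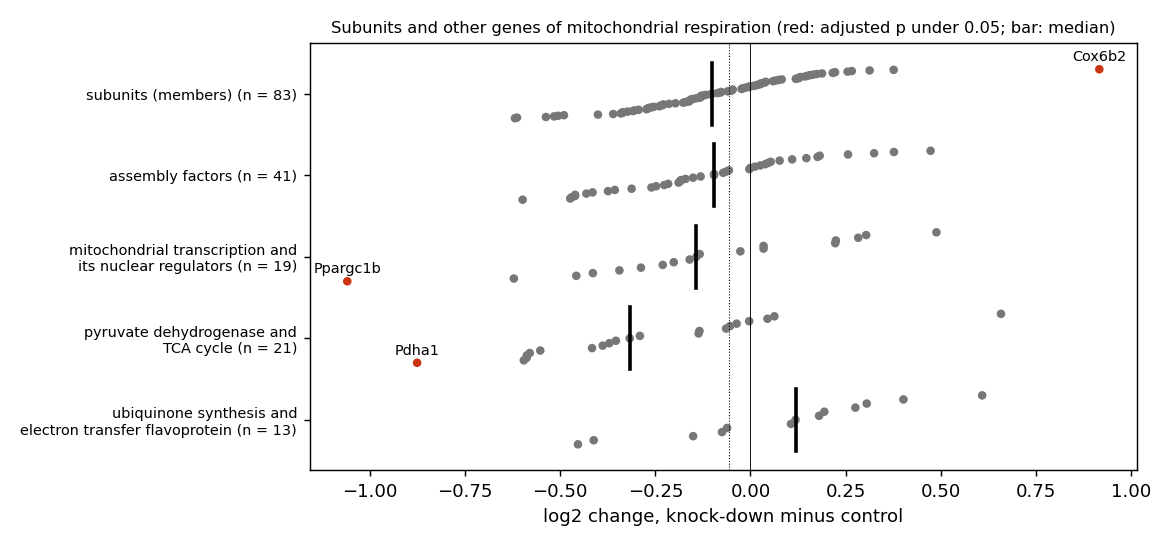
Log2 change (knock-down minus control, horizontal axis) of each tested subunit gene and of each tested gene of 4 lists of related genes (rows), with points for genes, a black bar for the median of a row, a dotted line for the median of all genes and red for genes past the threshold. Cox6b2 lies to the right at 0.92 and Ppargc1b and Pdha1 to the left at −1.06 and −0.88, and the medians run from −0.32 to 0.12.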

How the data were processed

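The deposited value table holds log2 values per probe and array. How the authors made it is not stated in the labels or headers: set against the scanner files, 99.7% to 99.8% of its values equalled the log2 of the processed signal, less 1 constant per array, to within 0.01, so its direction is that of the signal, with no centring of probes, each array's 75th percentile near 0 and medians of −3.85 and −3.98 (controls) and −3.93 and −3.91 (knock-down). The deposited scanner intensity values were extracted with Agilent Feature Extraction 10.7.3.1, per the file headers; its 75th percentile, as processed signal, was 561 and 798 (controls) and 642 and 505 (knock-down).

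The value table was the main source. Probe names came from RefSeq accessions matched to the GRCm38.p6 gene table: of 41174 probes, 24375 had 1 gene, 0 several and 16799 none, and these last kept their accession. Outlier-flagged spots were left out of the probe values made from the scanner files. The value table was used as deposited, less 50 probes that lacked an unflagged spot on at least 1 array. Probes had to be well above background on both arrays of either group, and the probe of highest mean stood for a gene. The fit was limma 3.58.1 in R 4.3.3 (lmFit and eBayes, two-sided, Benjamini-Hochberg over 19338 genes, 8.56 prior and 2 residual degrees of freedom), and its script was tested on simulated data. The number of arrays limits the precision.

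Named with full values are members past the threshold, the highest and lowest change and the 2 of highest mean signal in each complex, isoforms with their partners, and the 3 members whose probes disagree most. Of other lists, those past the threshold are named, or the 2 of highest signal. Other genes were added after their values were seen. The members and lists were chosen with earlier results of these data known.

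The alternatives were scanner signals, normexp (on median spot signals, since the files hold no mean signals), quantile scaling, scaling over bright probes, 2 other filters, averaging probes, 2 other variance priors, slide and replicate blocks and leaving out each sample.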

Additional observations from a re-analysis of the deposited data

How the results depend on the processing

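Of the 83 subunit genes, 0 were called with no filter on dim probes (Fbl, at −2.41, then had adjusted p = 0.104 and 1 of 85 members an unadjusted p under 0.05) and 0 with the slide as a block (also 0 at an unadjusted p under 0.05). Normexp background correction, and eBayes with trend and robust settings, each called 2, Cox6b2 rising and Cox7a2l falling. Leaving out 1 sample gave 0 to 3 called: 0 without knock-down 1 or knock-down 2 (1 and 0 at an unadjusted p under 0.05), 2 without control 1 and 3 without control 2. Across all genes 1313 were called, 0 with no filter (2964 at an unadjusted p under 0.05 in limma), 580 with the slide block, 2254 with trend and robust settings and between 580 and 3988 with 1 sample left out; the counts without control 1, control 2, knock-down 1 and knock-down 2 were 3988, 2312, 789 and 580. The cause of these shifts was not tested. With 1 sample left out, the lone sample of its group is assumed to vary like the other group.

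Leave-one-out medians ran from −0.18 to 0.16 for complex I, −0.37 to −0.12 for complex II, −0.40 to −0.015 for complex III, −0.25 to 0.027 for complex IV and −0.31 to 0.084 for complex V. The marker gene Elf5 reversed under normexp, to 0.12. The replicate block left 1 member called (Cox6b2, limma adjusted p = 0.0344) and called 9.11% of all genes. Same-numbered samples had a correlation of deviations of 0.0026 over 2 pairs. The labels do not say if samples of the same number were handled together, and with 2 pairs this value cannot tell. The median over all genes moved from −0.06 to 0.01 under normexp and −0.12 without control 2.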
